A study of Mus musculus with 8 samples.

Results

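A family of 10 myeloid C-type lectin genes was followed in 8 libraries from mouse thymic lymphomas that lack p53. The genes are Clec7a, Clec4a1, Clec4a2, Clec4a3, Clec4d, Clec4e, Clec4n, Clec5a, Clec10a and Clec12a. They were taken by symbol, and all 10 were found among the 13681 symbols of the table, under 15 transcript entries. Where a symbol had more than 1 entry, that with the highest mean over the 8 libraries was kept, so those means are a description only. The list was chosen by the FPKM of these same libraries in part: their differences from control, the increase of Clec7a among them, were known when it was drawn up. Tests and counts for the 10 genes therefore describe these libraries and are no independent evidence about the family. All tumours came from C57BL/6 mice aged 10 weeks, lacked p53 (p53-/-), were injected with an adenovirus and were taken 48 hours afterwards. The 2 control libraries are labelled ΔNfl/fl;p53-/- and received Ad-mCherry, a virus with a fluorescent marker alone. The 3 libraries labelled ΔNp63Δ/Δ;p53-/- and the 3 labelled ΔNp73Δ/Δ;p53-/- received Ad-CRE-mCherry, which also carries Cre recombinase. Virus and deletion therefore cannot be told apart in either comparison with control, and the control label does not say which gene is floxed. Whether libraries of 1 group were made from different mice is not labelled, and the p-values below cover the spread among these libraries, which may be technical.

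C-type lectin receptors of myeloid cells bind sugars, lipids and debris of dead cells through a shared extracellular fold. The activating receptors signal through an immunoreceptor tyrosine-based activation motif (ITAM), in their own tail or in the adaptors FcRγ and DAP12, to the kinase SYK and the CARD9 complex, which turns on NF-κB and cytokine genes. The inhibitory receptors carry a motif (ITIM) that recruits phosphatases. In tissues the genes are transcribed mostly by monocytes, macrophages, neutrophils and dendritic cells. In a bulk tumour, fewer cells of a type and less RNA per cell cannot be told apart.

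The name Dectin cluster does not stand for a single place in the genome. In the RefSeq annotation of GRCm38.p6, 9 of the 10 lie on chromosome 6 and Clec10a on chromosome 11. Clec4a1 and Clec4a3 are adjacent coding genes, and so are Clec4n, Clec4d and Clec4e in that order. Clec7a lies between Clec1a and Olr1, and Clec12a beside Clec12b. By the start of the promoter windows described below, Clec12a and Clec7a lie at bases 129349994 and 129472780 of the chromosome. Clec4a1 and Clec4e lie apart from them, at 122921598 and 123289872. Clec5a stands elsewhere on chromosome 6, between an olfactory and a taste receptor gene. Promoter sequences from RefSeq (GRCm38.p6, not the mm9 build of the deposited values) were at hand for 8 of the 10 genes, without Clec4n and Clec10a. The 250 bases before the start site held the purine-rich core GAGGAA, part of the site of the myeloid factor PU.1, on either strand in 6 of these 8, against 23.1% of 27025 genes with such a window. Clec4a2 and Clec4a3 had no match. The AP-1 motif TGANTCA was found in 1 of the 8, Clec12a, against 6.87% of all windows. The median GC content was 40.8% against 52% over all windows, with 7 of the 8 below that median, and the median number of CG dinucleotides was 3 against 6. These matches describe letters and not bound sites.

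The windows of 4 genes on which the results turn are shown on the gene's own strand, with GAGGAA and its reverse complement TTCCTC in capitals. They are Clec7a (chr6:129472780-129473029, minus strand), the gene that passed the test, Clec4d (chr6:123261857-123262106, plus strand) and Clec4e (chr6:123289872-123290121, minus strand), the neighbours listed near 0 in the same 3 libraries, and Clec12a (chr6:129349994-129350243, plus strand), an inhibitory receptor.
Clec7a: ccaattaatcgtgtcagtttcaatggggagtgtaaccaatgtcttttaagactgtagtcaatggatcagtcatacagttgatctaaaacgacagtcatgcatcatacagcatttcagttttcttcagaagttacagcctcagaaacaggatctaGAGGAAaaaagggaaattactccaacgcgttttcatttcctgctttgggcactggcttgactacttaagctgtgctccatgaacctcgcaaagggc
Clec4d: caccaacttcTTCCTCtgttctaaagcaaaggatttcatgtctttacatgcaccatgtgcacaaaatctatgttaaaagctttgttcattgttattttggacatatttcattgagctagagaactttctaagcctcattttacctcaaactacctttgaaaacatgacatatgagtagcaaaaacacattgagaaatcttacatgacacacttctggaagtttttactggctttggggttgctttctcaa
Clec4e: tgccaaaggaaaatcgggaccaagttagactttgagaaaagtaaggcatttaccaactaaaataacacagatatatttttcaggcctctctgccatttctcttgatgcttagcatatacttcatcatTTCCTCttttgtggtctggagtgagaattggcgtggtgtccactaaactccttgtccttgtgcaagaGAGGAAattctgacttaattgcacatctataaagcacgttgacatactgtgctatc
Clec12a: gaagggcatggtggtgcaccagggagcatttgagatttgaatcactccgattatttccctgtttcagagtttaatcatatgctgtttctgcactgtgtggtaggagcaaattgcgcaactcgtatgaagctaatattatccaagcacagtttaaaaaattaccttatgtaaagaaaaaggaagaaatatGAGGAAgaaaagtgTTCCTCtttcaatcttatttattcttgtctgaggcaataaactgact

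Expression is given as FPKM (fragments per kilobase of transcript, scaled to the size of the library), which the authors quantile-normalised between the libraries. No read counts were at hand, so that depth is unknown. The tumours were of T lineage by their markers: Cd3e was at 235 to 430.05 FPKM and Thy1 at 462 to 1479 in all 8 libraries. ΔNp63-labelled replicate 2 stood apart, with a median correlation of 0.847 with the other libraries across tested genes, against 0.915 to 0.956 for the others. Its mean correlation was 0.847 with its own group and 0.907 with the controls. The other libraries given Cre had 0.890 to 0.931 with the controls. Counts of calls are given with and without ΔNp63-labelled replicate 2. Trp63 was at 5.21 and 3.38 FPKM in control libraries and at 6.57, 1.05 and 9.91 in ΔNp63-labelled libraries. The label names the ΔN form alone, and which form the kept Trp63 entry measures was not examined. These values therefore cannot show whether the deletion took place, and directions rest on the labels. No entry was listed under the symbol Trp73, so the ΔNp73 label was not checked. Trp53 was at 81.0 and 67.6 FPKM in control libraries, at 17.3, 16.1 and 46.3 in ΔNp63-labelled libraries and at 66.1, 75.9 and 10.96 in ΔNp73-labelled libraries. The loss of p53 thus also rests on the labels.

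Clec7a encodes Dectin-1, the β-glucan receptor with an ITAM-like motif in its own tail. It was at 14.6 and 16.1 FPKM in control libraries, at 39.3, 33.4 and 36.3 in ΔNp63-labelled libraries and at 45.98, 45.6 and 37.95 in ΔNp73-labelled libraries. All 6 libraries given Cre lay above both controls, and the deletion groups overlapped each other. In the ΔNp73-labelled group the mean rose from 15.3 ± 1.09 (SD, n = 2) to 43.2 ± 4.54 (SD, n = 3), a difference of 1.43 in log2(FPKM + 1) (the log2 fold change, log2FC; SE 0.15, limma over 12921 genes, adjusted p = 0.0475). It was the gene with the fourth smallest p in that comparison. In the ΔNp63-labelled group the mean was 36.4 ± 2.92 (SD, n = 3), with a log2FC of 1.19 (SE 0.15, adjusted p = 0.0669), which did not pass the threshold of 0.05. Clec7a was the member with the smallest SE in both comparisons.

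The call of Clec7a rested on few libraries. Its log2FC was 1.36 to 1.52 whichever library was left out, but the adjusted p (limma) was 0.519 without control 1, 0.477 without control 2, 0.0547 and 0.101 without ΔNp63-labelled replicates 1 and 3, and 0.223, 0.26 and 0.0902 without ΔNp73-labelled replicates 1, 2 and 3. Without ΔNp63-labelled replicate 2 it was 0.000816.

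**Figure D1:**
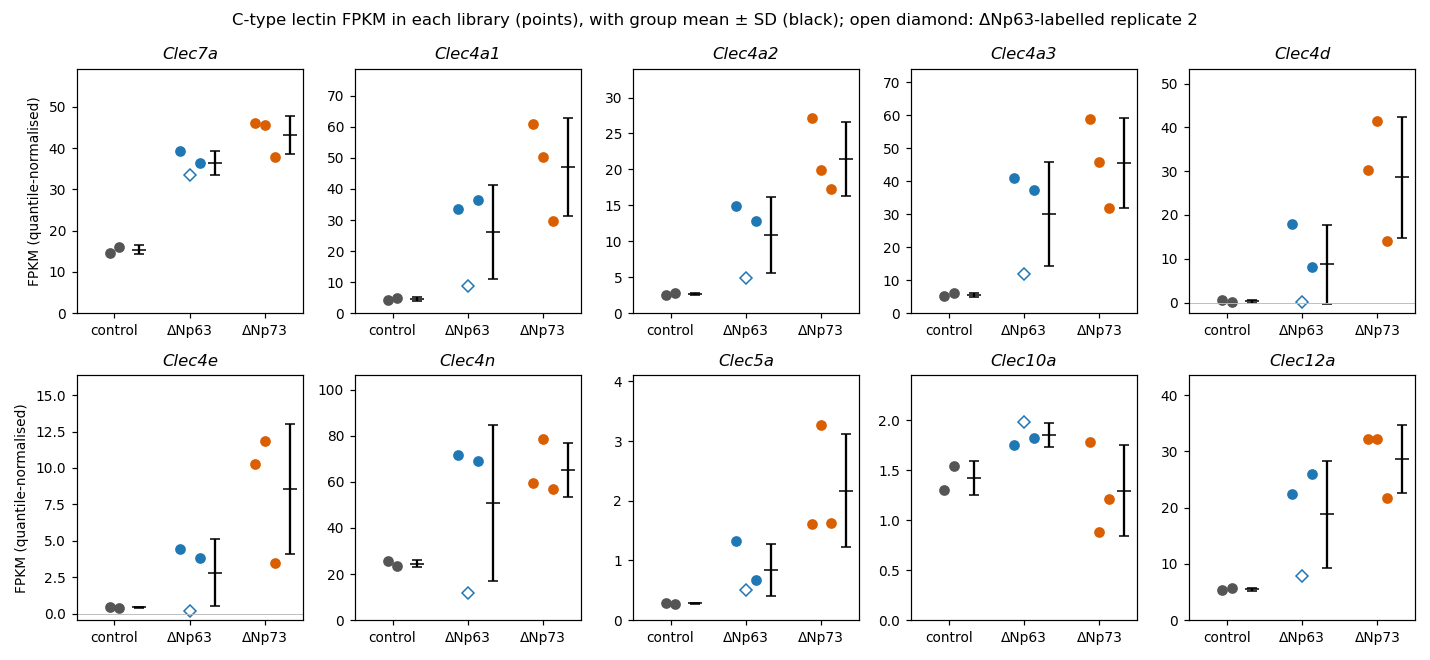
FPKM of each C-type lectin gene (vertical axis, linear, 1 scale per gene) in the control, ΔNp63-labelled and ΔNp73-labelled libraries. Points are libraries, the open diamond is ΔNp63-labelled replicate 2, and black bars are the group mean ± SD. Clec7a in the diamond (33.4) sits with its group, whereas Clec4d (0.0438) sits with the controls.

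Clec4n encodes Dectin-2, a mannan receptor that signals through FcRγ, and had the highest FPKM of the 10 genes in control libraries. It was at 25.6 and 23.4 FPKM there, at 71.8, 11.9 and 69.3 in ΔNp63-labelled libraries and at 59.6, 78.4 and 56.9 in ΔNp73-labelled libraries. ΔNp63-labelled replicate 2 lay below both controls, and the 5 other libraries given Cre lay above them. Neither difference passed the test, with a log2FC of 0.67 (SE 0.70, adjusted p = 0.734) in the ΔNp63-labelled group and 1.36 (SE 0.70, adjusted p = 0.302) in the ΔNp73-labelled group. Its second entry had lower FPKM, at 5.04 and 5.44 in control libraries and at 10.9 to 18.8 in the libraries given Cre other than that replicate, where it was at 3.34.

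Clec4d encodes MCL, which pairs with Mincle, the receptor for mycobacterial cord factor encoded by its neighbour Clec4e. Clec4d was at 0.543 and 0.00937 FPKM in control libraries, at 18.0, 0.0438 and 7.999 in ΔNp63-labelled libraries and at 30.2, 41.5 and 14.0 in ΔNp73-labelled libraries. Clec4e was at 0.439 and 0.404 FPKM in control libraries, at 4.46, 0.189 and 3.80 in ΔNp63-labelled libraries and at 10.3, 11.8 and 3.48 in ΔNp73-labelled libraries. Both genes were thus under 1 FPKM in control libraries and in ΔNp63-labelled replicate 2, and above 3 FPKM in the 5 other libraries. In the ΔNp73-labelled group the log2FC of Clec4d was 4.44 (SE 1.11, adjusted p = 0.107), the highest of the 10 genes but with the widest error. That of Clec4e was 2.61 (SE 0.71, adjusted p = 0.119). In the ΔNp63-labelled group they were 2.17 (SE 1.11, adjusted p = 0.456) and 1.15 (SE 0.71, adjusted p = 0.529). Such low control values make a ratio of means unstable, and the added 1 FPKM keeps the log2FC below that ratio. The second entry of Clec4d reached at most 5.52 FPKM and was also highest in ΔNp73-labelled replicates 1 and 2. There ΔNp73-labelled replicate 3 (0.463) lay below control 2 (0.850), so that these groups overlapped. ΔNp63-labelled replicates 1 and 3 were at 1.26 and 1.09 in that entry.

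Clec5a encodes MDL-1, which signals through DAP12 and DAP10, and was low throughout. It was at 0.282 and 0.277 FPKM in control libraries, at 1.33, 0.508 and 0.668 in ΔNp63-labelled libraries and at 1.61, 3.27 and 1.63 in ΔNp73-labelled libraries. In the kept entry the 3 groups did not overlap. The log2FC was 0.49 (SE 0.28, adjusted p = 0.492) in the ΔNp63-labelled and 1.27 (SE 0.28, adjusted p = 0.0945) in the ΔNp73-labelled group. At a pseudocount of 0.1 they were 1.203 (adjusted p = 0.364) and 2.504 (adjusted p = 0.0754). In its second entry, with a mean of 1.01 FPKM against 1.197 for the first, the deletion groups overlapped (0.222 to 1.68 and 0.67 to 2.41), and ΔNp63-labelled replicate 2 lay between the controls. Clec4d, Clec4e and Clec5a passed the filter on low values (at least 1 FPKM in at least 2 libraries) only through libraries given Cre, in 5, 5 and 4 libraries, so their entry into the test already required a difference.

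Clec4a2 encodes DCIR1, an inhibitory receptor with an ITIM. It was at 2.52 and 2.77 FPKM in control libraries, at 14.97, 4.96 and 12.8 in ΔNp63-labelled libraries and at 27.1, 19.95 and 17.2 in ΔNp73-labelled libraries. In the kept entry the 3 groups did not overlap, as for Clec5a. In its second entry the deletion groups overlapped (0.924 to 5.40 FPKM with the ΔNp63 label and 4.32 to 9.01 with the ΔNp73 label). The log2FC was 2.60 (SE 0.41, adjusted p = 0.0676) in the ΔNp73-labelled and 1.59 (SE 0.41, adjusted p = 0.236) in the ΔNp63-labelled group. Of the 50-base words of its longest coding transcript, 8.19% also occur in Clec4a4, another DCIR gene, so that its reads may be shared in part.

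Clec4a1 and Clec4a3 encode relatives of DCIR1 from the same cluster. Clec4a1 was at 4.14 and 5.03 FPKM in control libraries, at 33.5, 8.63 and 36.4 in ΔNp63-labelled libraries and at 60.8, 50.3 and 29.8 in ΔNp73-labelled libraries. Clec4a3 was at 5.18 and 6.02 FPKM in control libraries, at 40.9, 11.8 and 37.3 in ΔNp63-labelled libraries and at 58.98, 45.7 and 31.9 in ΔNp73-labelled libraries. The libraries took nearly the same order in both genes, and all 6 given Cre lay above the controls. Their log2FC of 3.05 (SE 0.59) and 2.78 (SE 0.51) in the ΔNp73-labelled group both had an adjusted p of 0.0787. In the ΔNp63-labelled group they were 2.06 for each (SE 0.59 and 0.51, adjusted p = 0.257 and 0.222). No 50-base word of either transcript was found in another gene.

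Clec12a encodes MICL, an inhibitory receptor that recognises uric acid crystals and dead cells. It was at 5.30 and 5.64 FPKM in control libraries, at 22.5, 7.93 and 25.96 in ΔNp63-labelled libraries and at 32.3, 32.2 and 21.7 in ΔNp73-labelled libraries. Each library given Cre lay above both controls. The log2FC was 2.18 (SE 0.46, adjusted p = 0.0841) in the ΔNp73-labelled and 1.46 (SE 0.46, adjusted p = 0.283) in the ΔNp63-labelled group.

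Clec10a encodes MGL1, a receptor for galactose-type sugars on macrophages and dendritic cells, and it departed from the other 9 genes. It was at 1.30 and 1.54 FPKM in control libraries, at 1.75, 1.98 and 1.82 in ΔNp63-labelled libraries and at 1.78, 0.884 and 1.21 in ΔNp73-labelled libraries. The ΔNp73-labelled libraries lay on both sides of the controls. The log2FC was -0.09 (SE 0.19, adjusted p = 0.800) in the ΔNp73-labelled and 0.24 (SE 0.19, adjusted p = 0.640) in the ΔNp63-labelled group. Its direction in the ΔNp73-labelled group turned when both entries were summed (0.12), in its second entry (0.33) and without ΔNp73-labelled replicate 2 (0.04). Of its 50-base words 10.6% also occur in Mgl2, its paralogue, so these low values may hold shared reads.

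Over the 10 genes, limma called 1 higher and 0 lower in the ΔNp73-labelled group, where 0.0464% of all genes were called higher. At an unadjusted p under 0.05, 8 were higher and 0 lower, where 11.4% of all genes were higher. In the ΔNp63-labelled group it called 0, where 0.031% of all genes were called higher, and 5 were higher at an unadjusted p under 0.05 (5.96% of all genes). The median log2FC of the 10 was 2.39 in the ΔNp73-labelled and 1.33 in the ΔNp63-labelled group, beside -0.07 and -0.02 over all genes tested. In 9 of the 10 genes, all but Clec10a, every ΔNp73-labelled library lay above both controls, as for 27.7% of all genes. In 7 of the 10 every ΔNp63-labelled library did, as for 12.6% of all genes. Both counts use the kept entry of each gene. In second entries the ΔNp73-labelled libraries of Clec4d, and the ΔNp63-labelled libraries of Clec5a and Clec10a, overlapped the controls. Both comparisons use the same 2 controls.

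Without ΔNp63-labelled replicate 2 the calls became many. In the ΔNp73-labelled group 9 of the 10 genes then rose, all but Clec10a, where 16.8% of all genes were called higher. The fold changes there were the same, since that library enters through the shared estimate of spread alone. In the ΔNp63-labelled group 8 rose, all but Clec5a (0.62, SE 0.28, adjusted p = 0.154) and Clec10a (0.20, SE 0.20, adjusted p = 0.484), where 11.7% of all genes were called higher. The median log2FC of the 10 in that group was then 1.90. Clec4d was at 3.39 (SE 0.54, adjusted p = 0.00656), Clec4a1 at 2.69 (SE 0.30, adjusted p = 0.00224) and Clec4n at 1.49 (SE 0.16, adjusted p = 0.00217).

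**Figure D2:**
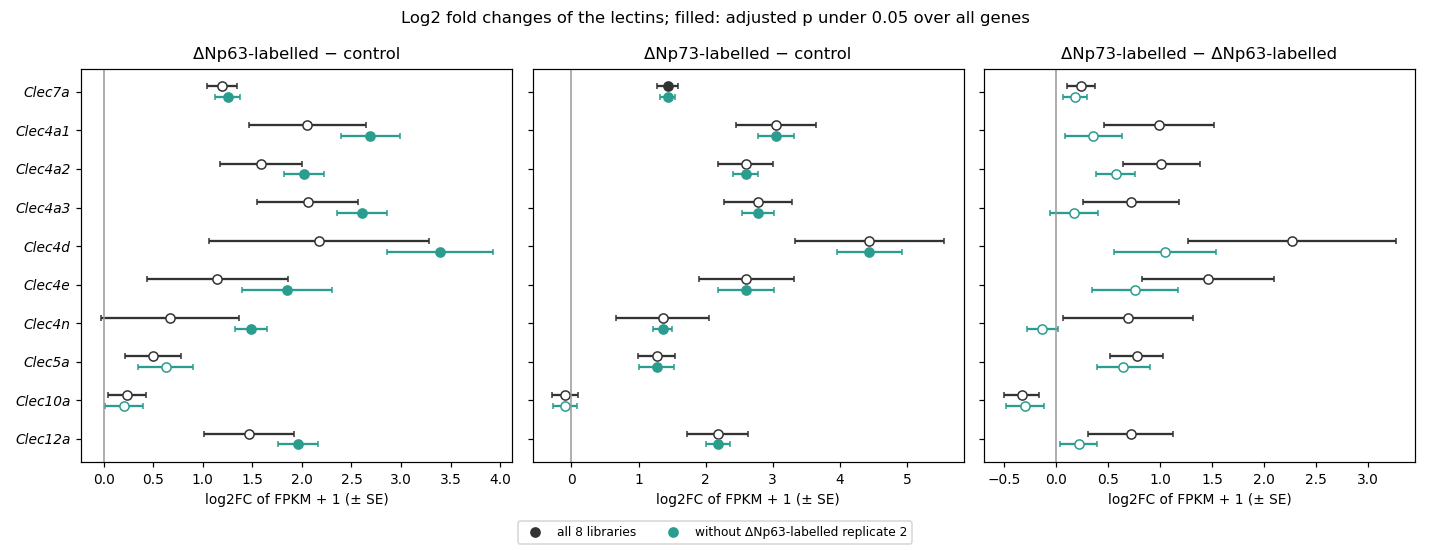
Log2FC of FPKM + 1 (horizontal axis, ± SE, 1 scale per panel) of the 10 genes in the 3 comparisons, with all 8 libraries (dark) and without ΔNp63-labelled replicate 2 (green). Filled points have an adjusted p under 0.05 over all genes. With all libraries 1 point is filled, Clec7a in the ΔNp73-labelled group, and without that library 9 and 8 points are filled in the comparisons with control.

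Between the deletion groups, which share the Cre virus, limma called 0 of the 10 genes, against 0.031% of all genes called higher with the ΔNp73 label. At an unadjusted p under 0.05, 2 of the 10 were higher in the ΔNp73-labelled group, where 6.11% of all genes were. These were Clec4a2 (log2FC 1.01, SE 0.37, adjusted p = 0.465) and Clec5a (0.77, SE 0.25, adjusted p = 0.439), the same 2 genes in which every ΔNp73-labelled library lay above every ΔNp63-labelled one (10.3% of all genes). For both genes this held in the kept entry and not in the second. With the entries of a symbol summed, the unadjusted p (limma) of Clec5a was 0.0799, and those of Clec4d and Clec4a2 were 0.0483 each. Of the 10 genes 9 lay above 0 (48.1% of all genes), all but Clec10a (-0.33, SE 0.17, adjusted p = 0.494). The median was 0.75 with all libraries and 0.29 without ΔNp63-labelled replicate 2, again with 0 called (0.0626% of all genes higher). Clec4n changed sign without it (0.69, SE 0.62 with it and -0.13, SE 0.15 without it).

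ΔNp63-labelled replicate 2 did not lower the 10 genes in proportion. Set against the mean of replicates 1 and 3 of its group, its FPKM ratio was 0.884 for Clec7a and 1.11 for Clec10a, 0.509 for Clec5a, and 0.247 to 0.357 for Clec4a1, Clec4a2, Clec4a3 and Clec12a. The ratio was 0.169 for Clec4n, 0.0458 for Clec4e and 0.00337 for Clec4d. Set against the control mean, the same library was at a ratio of 2.18 for Clec7a and 0.487 for Clec4n. Clec7a thus stayed near the level of the other libraries given Cre in a library where Clec4n, Clec4d and Clec4e were below the control mean. This is a single library, with no replicate check.

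The summed FPKM of the 10 genes was 59.9 and 61.2 in control libraries, 249, 81.4 and 232 in ΔNp63-labelled libraries and 329, 329.7 and 216 in ΔNp73-labelled libraries. Clec4n took 42.8% and 38.2% of it in control libraries and 14.6% in ΔNp63-labelled replicate 2. Clec7a took 24.3% and 26.3% of the sum in control libraries, 13.8% to 17.6% in 5 libraries given Cre and 41.1% in ΔNp63-labelled replicate 2. Clec4d took 0.906% and 0.0153% in control libraries and 3.44% to 12.6% in those 5 libraries. The share of Clec12a hardly moved, from 8.86% to 11.2% over all 8 libraries, while its FPKM differed 6.09-fold between the lowest and the highest library.

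**Figure D3:**
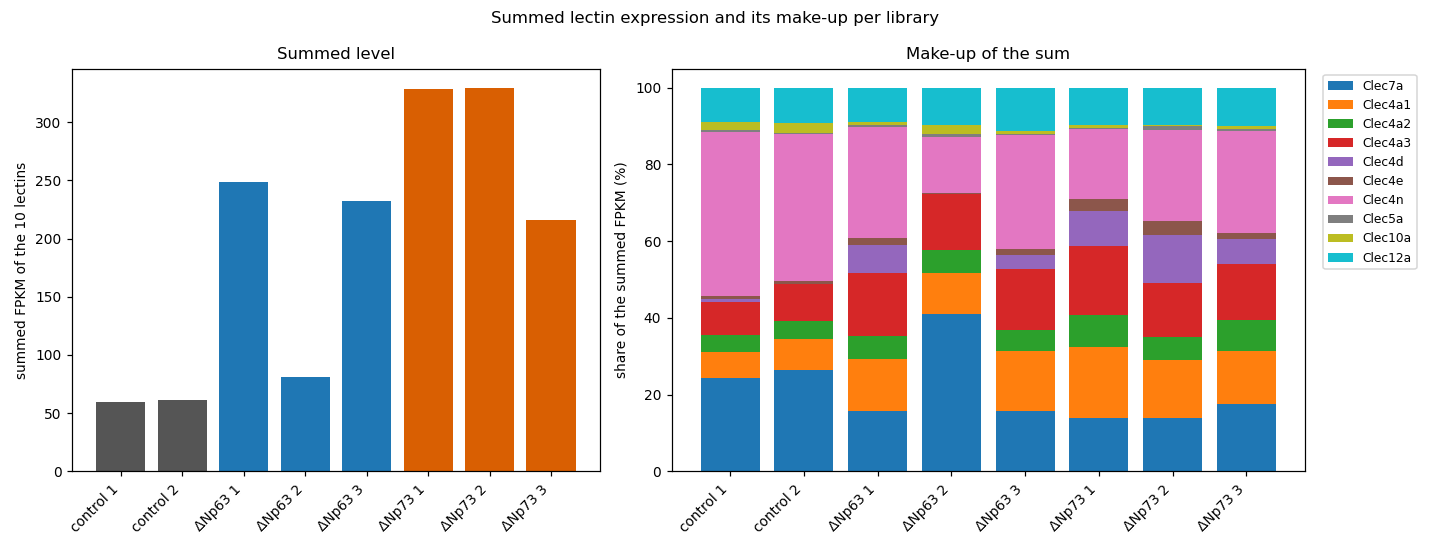
Left, summed FPKM of the 10 lectin genes in each library. Right, the share (%) of each gene in that sum. The controls (59.9 and 61.2) and ΔNp63-labelled replicate 2 (81.4) have the low sums, and Clec7a fills 41.1% of the latter.

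Levels per length can be ordered within a group by FPKM. In the controls the order of means was Clec4n (24.5), Clec7a (15.3), Clec4a3 (5.60), Clec12a (5.47), Clec4a1 (4.59), Clec4a2 (2.65), Clec10a (1.42), Clec4e (0.422), Clec5a (0.280) and Clec4d (0.276). The libraries of Clec4a3 and Clec12a overlapped, and those of Clec4d took in the values of Clec4e and Clec5a. In the ΔNp73-labelled group it was Clec4n (64.97), Clec4a1 (46.9), Clec4a3 (45.6), Clec7a (43.2), Clec12a (28.7), Clec4d (28.6), Clec4a2 (21.4), Clec4e (8.54), Clec5a (2.17) and Clec10a (1.29). Of neighbours in that order, Clec7a and Clec12a, Clec4a2 and Clec4e, and Clec4e and Clec5a had libraries that did not overlap, and the other neighbours overlapped. Genes further apart overlapped too, and the wide range of Clec4d (14.0 to 41.5) reached those of Clec4a1, Clec4a3 and Clec7a. Clec4d moved from the last place to the sixth, and Clec10a from the seventh to the last.

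Myeloid marker genes moved with the lectins. The macrophage and monocyte list (16 of 18 genes in the table, 15 tested) summed to 431 to 491 FPKM in control libraries, 465 to 1419 in the ΔNp63-labelled and 1175 to 1713 in ΔNp73-labelled libraries. Its most abundant gene, the lysozyme gene Lyz2, was at 169 and 199 FPKM in control libraries and at 394 to 521 in ΔNp73-labelled libraries. Of the 15 tested, 0 passed with all libraries (13 higher at an unadjusted p under 0.05 in the ΔNp73-labelled group, median log2FC 1.57). With ΔNp63-labelled replicate 2 left out, 14 rose in the ΔNp73-labelled and 13 in the ΔNp63-labelled group, where 16.8% and 11.7% of all genes did. The same shares apply to the counts of genes that rose in the lists below when that library was left out. No defining gene was at 0 throughout, Csf1r being at 8.99 to 36.5 FPKM and the scavenger receptor gene Marco under 0.4 in 5 of 8 libraries. The part of these markers in the lectin result was not tested.

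The neutrophil list (12 of 14 genes in the table) summed to 180 and 686 FPKM in control libraries, 59.2 to 787 in the ΔNp63-labelled and 960.05 to 1601 in ΔNp73-labelled libraries. S100a8, its most abundant gene, was at 96.8 and 458 FPKM in control libraries, so that the controls differed widely in neutrophil genes while their lectin sums were nearly equal. Of its 12 genes 0 passed with all libraries (3 higher at an unadjusted p under 0.05 in the ΔNp73-labelled group, median 1.27), and without ΔNp63-labelled replicate 2, 7 rose there and 4 in the ΔNp63-labelled group. The dendritic cell list (9 of 10 in the table) summed to 592 and 656 FPKM in control libraries, 291 to 1104 in the ΔNp63-labelled and 906 to 993 in ΔNp73-labelled libraries, most of it from H2-Ab1 and H2-Aa. Of 8 tested genes 0 passed (1 higher and 1 lower at an unadjusted p under 0.05 in the ΔNp73-labelled group, median 0.56), and with ΔNp63-labelled replicate 2 left out 6 rose and 1 fell there, and 3 rose and 1 fell in the ΔNp63-labelled group. The part of either list in the lectin result was not tested.

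**Figure D4:**
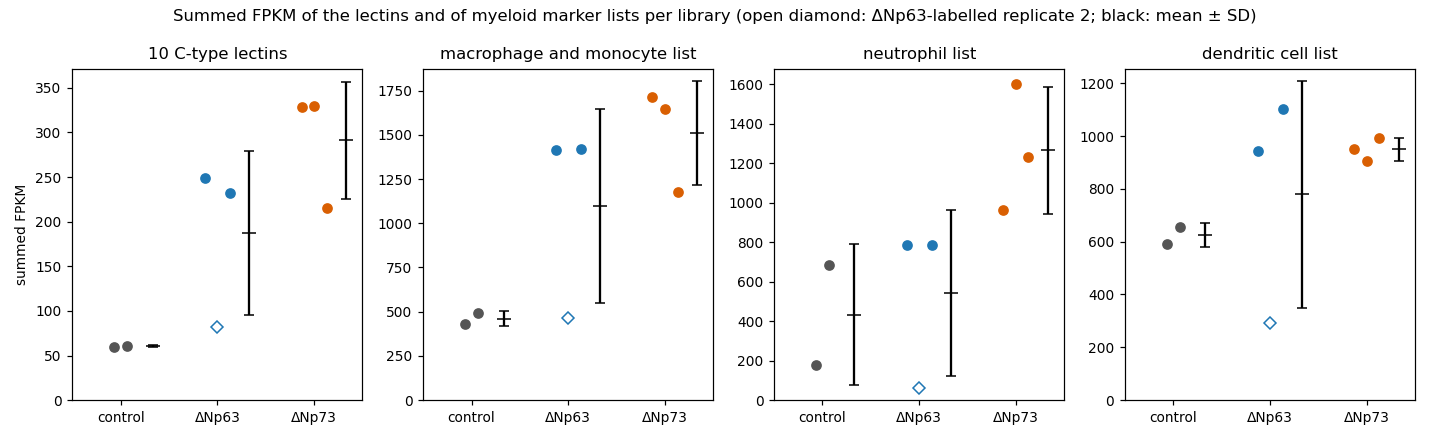
Summed FPKM (vertical axis, from 0) of the 10 lectins and of the macrophage and monocyte, neutrophil and dendritic cell lists in each library, with group mean ± SD. The lectin and macrophage sums are low in control libraries and in ΔNp63-labelled replicate 2 (open diamond), and the controls lie apart in the neutrophil sum alone (180 and 686).

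Among other cell types, the thymocyte and T cell list summed to 6203 and 6991 FPKM in control libraries, 2835 to 4935 in the ΔNp63-labelled and 2714 to 4376 in ΔNp73-labelled libraries, and it was lower than in either control in all 6 libraries given Cre, ΔNp63-labelled replicate 2 with its low lectin sum included. Of its 14 genes 0 passed with all libraries (6 lower at an unadjusted p under 0.05 in the ΔNp73-labelled group, median -0.99). Without ΔNp63-labelled replicate 2, 10 fell in the ΔNp73-labelled group and 3 in the ΔNp63-labelled group. Of all 12782 genes tested in that setting, 2064 and 1385 fell. The stroma list summed to 75.7 and 77.5 FPKM in control libraries and to 226 to 318 in ΔNp73-labelled libraries, and 1 of its 7 genes rose there with all libraries, the collagen gene Col1a2, named after its value was seen. When ΔNp63-labelled replicate 2 was left out, 7 of the 7 stroma genes rose in the ΔNp73-labelled group and 4 in the ΔNp63-labelled group. The B cell list (6 genes) and the cytotoxic list (6 of 7 in the table) had 0 genes past the threshold in either comparison with control when all libraries were used. At an unadjusted p under 0.05 they had 1 and 3 higher in the ΔNp73-labelled group. With ΔNp63-labelled replicate 2 left out, 1 B cell gene rose in each comparison, and 3 cytotoxic genes rose in the ΔNp73-labelled and 2 in the ΔNp63-labelled group. Gzma reached 981 FPKM in ΔNp63-labelled replicate 2 and at most 53.4 elsewhere. The part of these cell types in the lectin result was not tested.

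The lectins did not all keep their place relative to the macrophage list. Within each library the mean log2(FPKM + 1) of that list was subtracted from the value of each gene. Clec4a3 was at -0.78 and -0.81 in control libraries and at 0.05 to 0.54 in the 6 libraries given Cre, replicate 2 of the ΔNp63-labelled group included. Clec4a1 was at -1.04 and -1.03 in control libraries and at -0.36 to 0.59 in the others. Clec7a was at 0.55 and 0.47 in control libraries, at 0.19 to 0.46 in 5 libraries and at 1.48 in ΔNp63-labelled replicate 2. Clec10a was at -2.20, -2.28 and -2.05 in control libraries and that replicate, and at -4.36 to -3.48 in the 5 others. Of the genes not listed so far, Clec4a2 and Clec12a lay above both controls in every library given Cre. Clec4d, Clec4e, Clec4n and Clec5a overlapped the controls, Clec4n being at 1.33 and 0.98 there and at 0.06 to 1.16 in the others. The lectin sum was 13.9% and 12.5% of the macrophage sum in control libraries and 16.4% to 20.02% in the 6 others, without overlap. The lectins were listed with their increase known, so this share is not independent of that choice. These are descriptions with no test.

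Signalling genes downstream of the receptors were less uniform. Of 24 adaptors, kinases and NF-κB genes of activating receptors, 0 passed with all libraries (limma), and 12 were higher and 0 lower at an unadjusted p under 0.05 in the ΔNp73-labelled group (median 0.52). The SRC-family kinase genes Fgr (1.12, SE 0.22, adjusted p = 0.0818) and Lyn (2.12, SE 0.55, adjusted p = 0.111) and the protein kinase C gene Prkcd (0.63, SE 0.14, adjusted p = 0.0913) had the smallest p. The 3 adaptor genes are named for their role. Fcer1g, which encodes FcRγ, was at 40.96 and 50.1 FPKM in control, 122, 27.04 and 97.8 in ΔNp63-labelled and 280.45, 233 and 158 in ΔNp73-labelled libraries. Tyrobp, which encodes DAP12, was at 33.2 and 41.96 FPKM in control, 217, 38.9 and 137 in ΔNp63-labelled and 198, 169 and 144 in ΔNp73-labelled libraries. ΔNp63-labelled replicate 2 lay below both controls in Fcer1g and between them in Tyrobp. Hcst, which encodes DAP10, was at 24.5 and 28.2 FPKM in control, 34.7, 25.02 and 39.02 in ΔNp63-labelled and 42.8, 33.8 and 21.9 in ΔNp73-labelled libraries, so that its groups overlapped (0.26, SE 0.30, adjusted p = 0.638 in the ΔNp73-labelled group). Card9 was at 3.66 to 4.90 FPKM in 7 libraries and at 2.19 in ΔNp63-labelled replicate 2, with a log2FC of 0.20 (SE 0.24, adjusted p = 0.653) in the ΔNp73-labelled group. Without that replicate 14 of the 24 rose and 1 fell in the ΔNp73-labelled group and 11 rose in the ΔNp63-labelled group, among neither of which was Card9 (adjusted p = 0.227 and 0.639).

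The 3 phosphatase genes of ITIM receptors, Ptpn6, Ptpn11 and Inpp5d, had log2FC of 0.40, 0.21 and 0.11 in the ΔNp73-labelled group, and 0 passed (0 also at an unadjusted p under 0.05). Ptpn6 rose there without ΔNp63-labelled replicate 2 (adjusted p = 0.0487). Of 20 tested genes induced through these receptors, 0 passed with all libraries, with 13 higher at an unadjusted p under 0.05 in the ΔNp73-labelled and 8 in the ΔNp63-labelled group. The largest log2FC of the 4 with the smallest p was that of the monocyte chemokine gene Ccl2 (5.29, SE 0.95, adjusted p = 0.0787), at 1.76 and 2.83 FPKM in control libraries and 178, 152 and 74.6 in ΔNp73-labelled libraries. Arg1, Il1b and Cxcl1 were at 3.12, 2.81 and 2.51 (adjusted p = 0.0766, 0.0653 and 0.0743). Arg1 and Il1b were under 1 FPKM in both controls and passed the filter only through libraries given Cre. Leaving out ΔNp63-labelled replicate 2, 11 of the 20 rose in the ΔNp73-labelled and 7 in the ΔNp63-labelled group, and 0 fell.

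Host ligands were mixed. Of 5 tested genes reported as Dectin-1 or Mincle ligands 0 passed, and 2 were higher at an unadjusted p under 0.05 in the ΔNp73-labelled group, Anxa1 (2.07, SE 0.60, adjusted p = 0.128) and Vim (1.60, SE 0.52, adjusted p = 0.157). Anxa5 was at 0.74 (SE 0.40, adjusted p = 0.329). Sap130, a nuclear protein that Mincle senses from dying cells, was at 14.3 and 15.1 FPKM in control libraries and 11.6 to 12.0 in ΔNp73-labelled libraries (-0.29, SE 0.15, adjusted p = 0.312). When ΔNp63-labelled replicate 2 was left out, 3 of the 5 rose and Sap130 fell in both comparisons with control (adjusted p = 0.0385 and 0.0368 in the ΔNp73-labelled and ΔNp63-labelled groups).

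Of 14 tested transcription factor genes of myeloid cells 0 passed, with 9 higher and 1 lower at an unadjusted p under 0.05 in the ΔNp73-labelled group (median 1.11). Cebpd, Cebpb, Batf3 and Zeb2 had the smallest p (log2FC 0.99, 1.54, 0.80 and 1.42, adjusted p = 0.0787, 0.0886, 0.105 and 0.108), and Cebpd and Batf3 passed the filter only through libraries given Cre. Spi1, which encodes PU.1 and is listed as Sfpi1, is named for the promoter motif above. It was at 9.66 and 9.59 FPKM in control libraries, at 40.5, 9.23 and 31.5 in ΔNp63-labelled libraries and at 43.5, 44.96 and 33.1 in ΔNp73-labelled libraries (1.95, SE 0.54, adjusted p = 0.120). Its libraries thus split as those of Clec4d and Clec4e did. Without ΔNp63-labelled replicate 2, 11 of the 14 rose and 1 fell in the ΔNp73-labelled group and 9 rose in the ΔNp63-labelled group.

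The other lectin-like genes of chromosome 6, most of which belong to natural killer and T cells, had smaller differences. Of 32 listed, 18 were in the table and 13 were tested, with a median log2FC of 0.66 in the ΔNp73-labelled and 0.40 in the ΔNp63-labelled group. With all libraries 0 passed, and 5 and 2 were higher at an unadjusted p under 0.05. Klre1 (1.10), Klrk1 (0.98), Clec1b (1.04) and Klra7 (0.82) had the smallest p in the ΔNp73-labelled group (adjusted p = 0.0999, 0.113, 0.121 and 0.143). Klre1, Klrk1 and Klra7 were under 1 FPKM in both controls and passed the filter only through libraries given Cre, which already required a difference. Without ΔNp63-labelled replicate 2, 6 rose in that group and 5 in the ΔNp63-labelled group.

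C-type lectin genes elsewhere in the genome lay on both sides of 0. Of 20 tested, 6 were higher and 4 lower at an unadjusted p under 0.05 in the ΔNp73-labelled group and 1 higher and 6 lower in the ΔNp63-labelled group, and 0 passed in either. Mrc1, the mannose receptor gene of macrophages, was at 4.11 and 4.97 FPKM in control libraries and at 15.6, 10.4 and 15.1 in ΔNp73-labelled libraries (1.39, SE 0.28, adjusted p = 0.0824). The lectin genes Mgl2, Cd209a and Cd209e of dendritic cell cells and macrophages lay the other way. Mgl2, the paralogue of Clec10a, was at 3.76 and 2.86 FPKM in control libraries and at 0.721 to 2.16 in all 6 libraries given Cre (-1.07, SE 0.23, adjusted p = 0.0886 in the ΔNp73-labelled group). Cd209a, a mouse gene of the DC-SIGN family, was at 2.25 and 3.01 FPKM against 0.316 to 1.36 (-0.94, SE 0.24, adjusted p = 0.110), and Cd209e of the same family at 1.35 and 1.12 against 0.0429 to 0.468 (-0.77, SE 0.16, adjusted p = 0.0883). Cd209e passed the filter on low values only through the controls, so that its entry into the test already required a difference. ΔNp63-labelled replicate 2 was also below both controls in these 3 genes, of which the dendritic cell list holds Cd209a too. When it was left out, 9 of the 20 rose and 4 fell in the ΔNp73-labelled group and 6 rose and 5 fell in the ΔNp63-labelled group, with all 3 among those that fell in both.

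**Figure D5:**
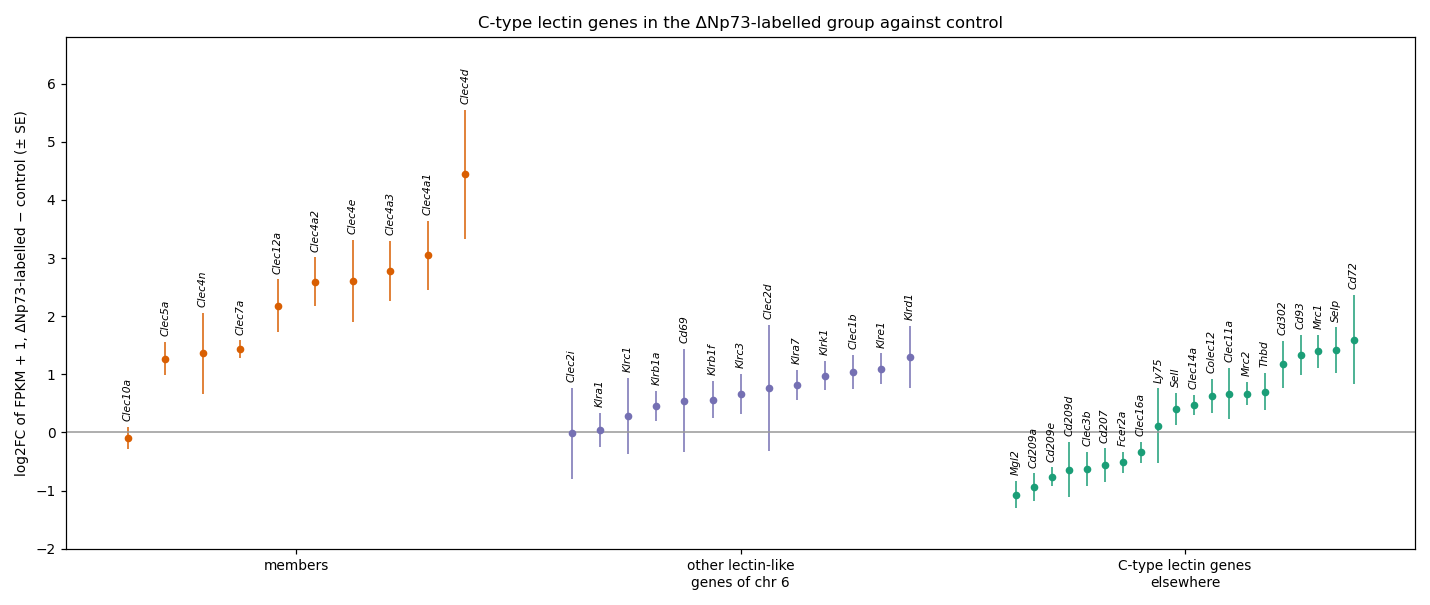
Log2FC of FPKM + 1 (vertical axis, ± SE) in the ΔNp73-labelled group against control, with all 8 libraries, for the 10 genes, 13 other lectin-like genes of chromosome 6 and 20 C-type lectin genes elsewhere, each group sorted by value. Clec4d is highest at 4.44, Clec10a is at -0.09, and Mgl2 is lowest at -1.07.

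The genes whose log2(FPKM + 1) over the 8 libraries was most like the mean standardised value of the 10 lectins were Pla2g7 and Fgr (Pearson r of 0.998 each), Ccr1 (0.997), and Tlr1 and Tlr13 (0.996 each). The libraries share tumour type and normalisation, and these values describe likeness alone. Ccr1 was at 1.05 and 1.11 FPKM in control libraries, at 12.4, 1.91 and 10.5 in ΔNp63-labelled libraries and at 20.9, 18.4 and 10.6 in ΔNp73-labelled libraries. Each lectin was also set against the mean of the other 9. Clec4a1 (0.997), Clec4a3 (0.995), Clec12a (0.991) and Clec4a2 (0.987) were the closest, Clec4d was at 0.951, Clec4e at 0.938, Clec7a at 0.899, Clec4n at 0.814 and Clec5a at 0.810, and Clec10a was at -0.22.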

How the data were processed

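The authors deposited 1 table of FPKM per RefSeq transcript (16589 entries), quantile-normalised per the file name, with no counts. The submitters' processing notes name TopHat2 2.0, Cufflinks 2.0 and build mm9, with no role given. Quantile normalisation gives every library nearly the same distribution, so the table cannot show a change in total RNA. Gene names that a spreadsheet had made into dates (35) were looked up again by their RefSeq identifier. Per symbol the entry with the highest mean was kept. Genes with at least 1 FPKM in at least 2 libraries (12921) were put on the log2(FPKM + 1) scale and tested in R 4.3.3 by limma 3.58.1 (all 8 libraries in 1 model, 5 residual degrees of freedom, intensity trend, two-sided, Benjamini-Hochberg over all genes tested, threshold 0.05). The model was also run on simulated data in which each gene had the same spread in every library. That setting does not cover a library that stands apart, as ΔNp63-labelled replicate 2 does here. Named genes were the 10 lectins, the 5 symbols most like them, up to 4 genes per pathway list by smallest p in the ΔNp73-labelled comparison and up to 2 per cell type list by mean FPKM. Others are marked as named for a role or after their values were seen. Exceptions are Cd3e, Csf1r, Marco, Trp53 and Trp63, which were named in view of a label or a list. Members and lists were chosen with earlier results of these data known. Alternatives were another pseudocount, no filter, summed entries, only the compared groups, array weights, no trend, leaving out each library and every entry tested separately.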

Additional observations from a re-analysis of the deposited data

How the results depend on the processing

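Depth is unknown, which limits what can be said of genes under 1 FPKM, and the groups hold 2 or 3 libraries. Where leaving out a control left 1, that library was assumed to vary like the other groups. No paired analysis was possible because the labels give no replicate numbers, and those used here follow the order of the samples. In the ΔNp63-labelled comparison with control, 12 genes and 0 of the lectins were called with all libraries, 5 genes with only the compared groups (where Clec5a did not pass the filter), 4480 genes and 8 lectins with array weights, and 3 to 2882 genes and 0 to 8 lectins with each library left out. In the ΔNp73-labelled comparison 7 genes and 1 lectin were called, 18 genes at a pseudocount of 0.1, 3890 genes and 9 lectins with only the compared groups, 6569 genes and 9 lectins with array weights, and 0 to 4212 genes and 0 to 9 lectins with each library left out. The 0 lectins stood without either of ΔNp63-labelled replicates 1 and 3 or any ΔNp73-labelled library, among others. The upper ends stood without ΔNp63-labelled replicate 2. Where control 1 or control 2 was left out, the median log2FC of the 10 lectins was 2.34 and 2.40. Tested as separate entries, an alternative chosen after seeing the data, 0 lectin entries passed in the ΔNp73-labelled comparison (Clec7a adjusted p = 0.0581). Between the deletion groups 7 genes and 0 lectins were called, 344 genes with array weights, and 6 to 19 genes with each library left out. Directions that turned were Clec10a in the ΔNp73-labelled comparison with summed entries (0.12), in its second entry (0.33) and without ΔNp73-labelled replicate 2 (0.038, in a range of -0.243 to 0.038 with each library left out), Clec10a between the deletion groups in its second entry (0.28), and Clec4n between the deletion groups without ΔNp63-labelled replicate 2 (-0.131, in a range of -0.131 to 1.12). No other lectin changed direction under the alternatives run. The cause of these changes was not tested.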
